A study of Mus musculus with 6 samples.

Results

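The comparison covered here is that of Sox9 knockout with wild type over all regions of the conjunctiva, whose epithelium was cut from mouse embryos at E14.5. It uses 6 of the series' 6 arrays, 1 for each genotype and region, chosen by their titles and paired by region (nasal, temporal and dorsal). The knockout is labelled Sox9 fx/fx and Le-Cre-positive (Sox9-/-), the control is labelled wild type, and all embryos had a mixed background of FVB and 129. The labels do not say whether the controls carried Le-Cre or floxed alleles. Le-Cre is driven by regulatory sequence of Pax6, which is active in the epithelia that derive from ocular surface ectoderm and not in the mesenchyme around them. By the series' design text 3 embryos of each genotype were used and the cDNA of a region was pooled, so the 3 arrays of a genotype share embryos. A difference with the same sign in all 3 regions therefore repeats a measurement over regions, not over independent embryos, and p-values for genotype are too small. All arrays lay on 1 BeadChip, with those labelled knockout at positions A to C and wild type at D to F, so chip position and genotype cannot be told apart.

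Sox9 encodes a transcription factor of the high-mobility-group family that binds the minor groove of DNA at short sequences of the AACAAT type. It is best known as the activator of cartilage matrix genes such as Col2a1, and in the eye it acts in the buds that grow from the conjunctiva to form the lacrimal and Harderian glands. The conjunctiva is a stratified epithelium held together by keratins, desmosomes and tight junctions, and FGF signalling drives gland budding from it.

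Signals are given as background-corrected, quantile-normalized log2 values, and a difference is always the array labelled knockout minus the wild-type array of the same region. A gene was represented by its brightest probe detected on at least 2 of the 6 arrays, which left 11147 genes. On the arrays 39.8% to 45.6% of probes were detected, 3 arrays labelled knockout between 39.8% and 44.9% and 3 wild-type arrays between 43.4% and 45.6%. Of epithelial markers, 13 of the 16 epithelial genes on the array were tested, among them Krt5, Krt14, Epcam, Cdh1, Trp63 and Pax6. Their summed linear signal was 8858 to 9617 on the arrays labelled knockout and 8156 to 9250 on the wild-type arrays. Of 13 endothelial genes 0 reached the filter and 9, including Pecam1, Cdh5 and Kdr, were detected on no array. In bulk RNA fewer cells of a type and less RNA per cell cannot be told apart.

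Sox9 itself read 10.21, 10.06 and 9.85 on the nasal, temporal and dorsal arrays labelled knockout and 8.29, 10.01 and 10.35 on the wild-type arrays (log2). The genotypes overlapped, and the nasal array labelled knockout was above its wild-type partner. The fitted difference was 0.49 (SE 0.50, adjusted p = 0.897 in limma), and its dimmer probe gave 0.99, -0.42 and 0.78. The place of these probes relative to the floxed exons is not known, so they do not test the deletion, and the arrays are called by their labels.

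Among the 5 tested genes on either side of Sox9 in chromosome order, 1 of those next to it had the largest difference in its weakest region. This gene, 2610035D17Rik, is annotated as a long noncoding RNA in RefSeq (GRCm38.p6) and read 4.75, 4.96 and 4.95 on the nasal, temporal and dorsal arrays labelled knockout and 6.11, 6.85 and 6.41 on the wild-type arrays. All 3 arrays labelled knockout lay below all 3 wild-type arrays, with differences of -1.36, -1.89 and -1.47 (fit -1.57, SE 0.25, adjusted p = 0.814 in limma). It has 1 tested probe, so a second probe could not be compared. Of the 5 tested genes on either side of Sox9, chosen for this look after the values were seen, Map2k6, a kinase that activates p38, had -1.71, -0.52 and -0.995, and D11Wsu47e -0.34, -1.03 and -0.91. Prkar1a, a regulatory subunit of protein kinase A, had -0.03, -0.00 and -0.23, and the other 6 neighbours (Abca8b, Abca9, Kcnj2, Slc39a11, Cog1 and Fam104a) differed in sign between regions.

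**Figure D1:**
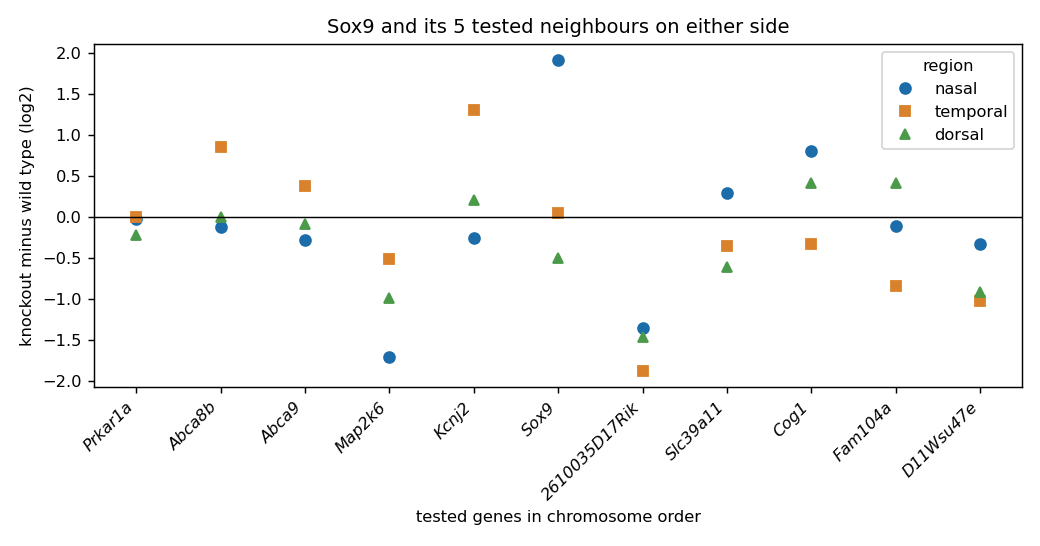
Knockout minus wild type (log2, y axis) in nasal (circles), temporal (squares) and dorsal epithelium (triangles) for Sox9 and its 5 tested neighbours on either side, in chromosome order (x axis). At 2610035D17Rik all 3 regions lie between -1.89 and -1.36, while Sox9 ranges from -0.50 to 1.92.

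Promoter windows (250 bases before to 50 after the annotated start) were read for the Sox-type letters AACAAT or AACAAAG on either strand, neither of which contains the other. Sequences are from RefSeq, GRCm38.p6, 5′ to 3′ on the gene's strand, in lower case with the sites in capitals. The long noncoding neighbour of Sox9 is shown for its position (chr11:113201789-113202088, minus strand, 0 sites), and Itfg2 (chr6:128424861-128425160, minus strand), Nfix (chr8:84772826-84773125, minus strand, the 1 of its 4 promoters with a site) and Rtl8b (chrX:53670388-53670687, minus strand) are the genes with a site among those at least 2-fold lower in every region.
2610035D17Rik: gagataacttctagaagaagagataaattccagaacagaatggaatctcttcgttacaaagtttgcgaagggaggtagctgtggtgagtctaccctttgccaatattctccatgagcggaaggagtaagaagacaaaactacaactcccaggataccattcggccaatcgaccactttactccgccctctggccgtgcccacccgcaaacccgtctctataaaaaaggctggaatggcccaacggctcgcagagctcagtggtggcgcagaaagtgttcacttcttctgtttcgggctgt
Itfg2: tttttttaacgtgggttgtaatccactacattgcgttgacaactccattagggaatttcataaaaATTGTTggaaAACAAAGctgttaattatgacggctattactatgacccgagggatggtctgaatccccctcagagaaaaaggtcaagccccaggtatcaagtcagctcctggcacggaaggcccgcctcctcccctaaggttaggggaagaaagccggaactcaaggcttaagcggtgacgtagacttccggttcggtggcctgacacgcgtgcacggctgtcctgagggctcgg
Nfix: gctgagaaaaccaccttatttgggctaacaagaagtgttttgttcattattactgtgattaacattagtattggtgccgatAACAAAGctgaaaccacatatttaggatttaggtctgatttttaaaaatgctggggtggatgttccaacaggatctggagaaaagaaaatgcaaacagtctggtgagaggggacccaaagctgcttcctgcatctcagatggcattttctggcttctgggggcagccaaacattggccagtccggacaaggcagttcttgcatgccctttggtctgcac
Rtl8b: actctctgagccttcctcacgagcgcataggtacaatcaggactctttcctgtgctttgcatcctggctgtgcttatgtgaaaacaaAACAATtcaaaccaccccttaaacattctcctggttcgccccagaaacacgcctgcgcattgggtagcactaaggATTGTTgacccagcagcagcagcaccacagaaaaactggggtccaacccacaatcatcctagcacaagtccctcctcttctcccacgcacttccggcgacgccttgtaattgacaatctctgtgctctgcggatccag
Of the 22 genes at least 2-fold lower in every region 20 matched a promoter in the table and 3 held a site (15%), against 1051 of 8995 tested genes (11.7%) and 4792 of 27025 genes of the table (17.7%). Of the 7 genes at least 2-fold higher 4 matched, and 0 held a site. These shares describe letters in a window and say nothing about binding.

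No gene passed the test across all genes. At an adjusted p under 0.05 limma called 0 of 11147 genes (0%), and the smallest adjusted p was 0.814. At an unadjusted p under 0.05 it counted 306 higher genes (2.75%) and 352 lower genes (3.16%). The 95% confidence intervals of the fitted differences had a median reach to each side of 0.711 on the log2 scale.

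In all 3 regions 1447 genes (13%) were higher and 1606 (14.4%) lower on the arrays labelled knockout. Without overlap between the 3 arrays of each genotype were 575 higher (5.16%) and 703 lower genes (6.31%). The same sign together with a difference beyond 1.96 bead standard errors in each region was seen in 392 higher and 484 lower genes of the 11147 tested. This error covers measurement on an array only. At least 2-fold in every region were 29 genes, 7 higher (0.0628%) and 22 lower (0.197%). Each of their differences lay beyond 1.96 bead standard errors. The 2-fold choice fixed this in advance, as the largest of these errors was 0.23 (Sys1 in dorsal). That choice also favours a lack of overlap between the genotypes, seen for 26 of the 29, so the latter is no separate support. All 29 had an adjusted p of 0.814 in limma, so none passed. The balance depended on scaling, since median scaling in place of quantile normalization gave 27 higher and 10 lower genes, with 17 of the 29 among these 37. Without background correction 0 higher and 2 lower genes were left, both among the 29. Where a gene was not detected on an array, its value there is signal at background and the difference is not exact. Of the 22 lower genes 11 were detected on all 3 arrays labelled knockout, and Pgam2 and Bahd1 were detected on 2 of 3 wild-type arrays. With genes cut into 4 equal parts by mean signal, 11 came from the second part from below and 18 from the third, and 0 from the dimmest and the brightest. The last gene inside the 2-fold threshold was Anxa11 (weakest region -1.003, dorsal) and the first outside was Esyt2 (-0.99, dorsal).

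**Figure D2:**
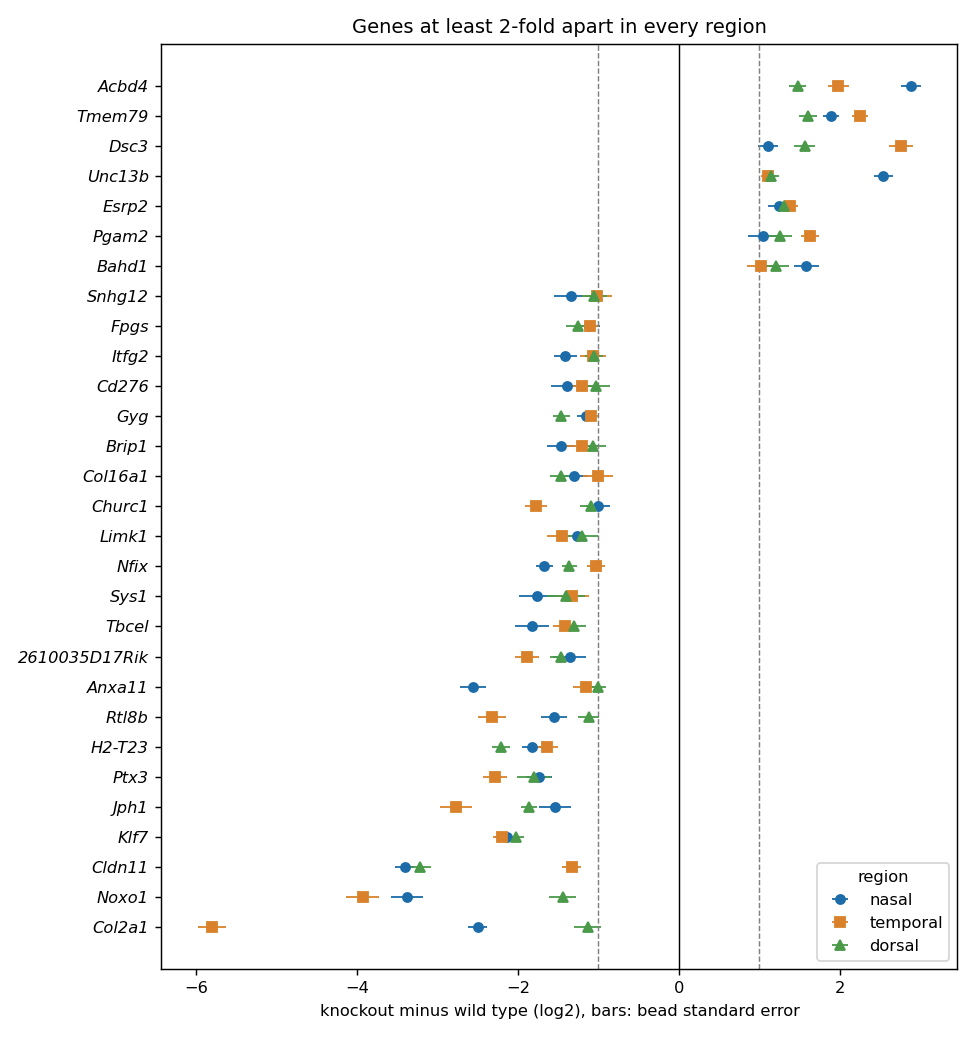
The 29 genes at least 2-fold apart in every region, with knockout minus wild type (log2, x axis) in nasal (circles), temporal (squares) and dorsal epithelium (triangles) and bars for the bead standard error. Klf7 has 3 nearly equal differences (-2.14, -2.20 and -2.03), whereas Col2a1 ranges from -5.80 to -1.13.

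The lower gene with the largest difference in its weakest region was Klf7, while 2 other regulators of transcription, Nfix and Churc1, lay closer to the 2-fold line. Klf7, a Krüppel-like factor known from neurons, read 4.99, 5.60 and 5.26 on the nasal, temporal and dorsal arrays labelled knockout and 7.13, 7.81 and 7.28 on the wild-type arrays. The groups did not overlap (fit -2.12, SE 0.24), but its other 2 probes had weaker differences or other signs, with 1.28, -0.74 and 0.49 on the second and -0.17, -0.85 and -0.36 on the third. Nfix, a nuclear factor I protein of stem cell quiescence and differentiation, read 6.10, 6.37 and 6.44 against 7.77, 7.41 and 7.80, and all 4 of its tested probes were lower in all 3 regions. The size was smaller on the others, with -0.32, -0.35 and -0.75 on the second brightest probe and -0.07, -0.10 and -0.08 on the third. Churc1, a zinc-finger protein known from chick to act downstream of FGF, had -1.01, -1.77 and -1.10, and its other probe -0.35, -0.08 and -0.03.

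Lower genes of the cell surface and matrix included Col2a1, which varied most between regions among the 29. Cldn11, a claudin of tight junctions, read 5.33, 5.25 and 4.58 on the arrays labelled knockout and 8.74, 6.58 and 7.79 on the wild-type arrays. It has 1 tested probe, and its difference in temporal was the smallest of the 3 (-3.40, -1.33 and -3.22). Col2a1, the main collagen of cartilage and a known target of Sox9, read 5.59, 4.24 and 5.02 against 8.09, 10.04 and 6.15, detected on 2 of 3 arrays labelled knockout. Its 3 tested probes were lower in every region, by -2.50, -5.80 and -1.13 on the brightest, -2.13, -5.25 and -0.95 on the second and -3.29, -5.47 and -0.28 on the third. Col16a1, a collagen of the fibril-associated type, had -1.31, -1.003 and -1.46 on 1 probe. Cd276, an immune checkpoint ligand of the cell surface, had -1.39, -1.20 and -1.03 on 1 probe and was detected on 1 of 3 arrays labelled knockout.

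Ptx3, a secreted pentraxin of innate immunity that also organises hyaluronan matrix, was detected on 0 of 3 arrays labelled knockout and on 3 of 3 wild-type arrays. It read 4.18, 4.38 and 4.42 against 5.93, 6.66 and 6.23, at least 3.36-fold lower when set against the lowest detected level, without overlap. Its second probe gave -1.64, -2.74 and -2.12, beside -1.74, -2.28 and -1.80 on the first. H2-T23, which encodes the non-classical class I molecule Qa-1, read 6.08, 5.88 and 5.42 against 7.90, 7.52 and 7.63, without overlap (fit -1.89, SE 0.25). Its 3 probes were all lower in all 3 regions, though the other 2 differed by only -0.23 and -0.11 in dorsal (-1.01, -0.61 and -0.23 on the second, -0.93, -1.02 and -0.11 on the third). Class I genes are near-identical in parts, so signal from related genes cannot be told apart here.

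Genes of metabolism and cell structure followed, of which several differed between probes. Gyg, the glycogenin that primes glycogen synthesis, read 5.72, 6.17 and 6.24 against 6.87, 7.26 and 7.70, with -0.80, -0.52 and -0.53 on its second probe. Limk1, a kinase that inactivates the actin-severing protein cofilin, had -1.26, -1.45 and -1.20, and Tbcel, a tubulin-folding cofactor, -1.82, -1.41 and -1.30. Each has 1 tested probe, and Tbcel was detected on 2 of 3 arrays labelled knockout. Jph1, a junctophilin that ties membranes together in muscle, had -1.53, -2.77 and -1.87 on the brightest probe but 0.74, -0.86 and -1.65 on the other, so the probes differed in sign in nasal. It was detected on 1 of 3 arrays labelled knockout, and its nasal and temporal values there lay at background. Noxo1, an organiser of NADPH oxidase, had -3.38, -3.93 and -1.45, and its other probe 0.01, -0.22 and -0.30. It too was detected on 1 of 3 arrays labelled knockout, so its nasal and temporal differences were taken against background. Anxa11, an annexin, had -2.56, -1.15 and -1.003 and its other probe -0.76, 0.54 and 0.45, and Fpgs, which adds glutamates to folate, -1.12, -1.10 and -1.25 against 0.02, 0.09 and 0.15 on the other probe. Second probes thus went against the brightest in at least 1 region for these 4 genes.

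The remaining lower genes also had 1 tested probe each. Sys1, a Golgi trafficking protein, was detected on 0 of 3 arrays labelled knockout and was at least 2.39-fold lower. Brip1, a helicase of DNA repair, was likewise detected on 0 of 3 and was at least 2.08-fold lower. Rtl8b, derived from a retrotransposon, had -1.55, -2.32 and -1.12. Itfg2, a subunit of a complex in nutrient sensing, had -1.41, -1.07 and -1.05. Snhg12, a host of small nucleolar RNAs, had -1.34, -1.02 and -1.05 and was detected on 1 of 3 arrays labelled knockout. The arrays of the genotypes overlapped for Itfg2 and, with more than 1 probe, for Anxa11. They did not overlap for the other 20 lower genes, which the 2-fold choice favours.

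Among the 7 higher genes Tmem79 had the largest difference in its weakest region. Tmem79, or mattrin, a barrier protein of epidermal secretory granules, read 7.47, 8.50 and 7.12 on the arrays labelled knockout and 5.58, 6.25 and 5.51 on the wild-type arrays. Each array labelled knockout was above all wild-type arrays (fit 1.92, SE 0.26), on 1 tested probe. Dsc3, a desmosomal cadherin, read 6.31, 7.68 and 6.59 against 5.20, 4.92 and 5.03, with the largest difference in temporal (fit 1.81, SE 0.37). Esrp2, which controls epithelial splicing, read 7.08, 7.81 and 7.95 against 5.84, 6.43 and 6.64. Its second probe had the same sign in nasal and temporal and the opposite in dorsal (1.19, 1.37 and -1.33). Acbd4, an acyl-CoA-binding protein, read 7.57, 7.03 and 7.22 against 4.68, 5.05 and 5.75. Its second probe had the same sign in every region (3.00, 1.69 and 0.99). The other 5 of the 7 higher genes have 1 tested probe each, so a second probe could be compared for Acbd4 and Esrp2 only. Unc13b, which primes vesicles for release, had 2.54, 1.11 and 1.14, the muscle-type phosphoglycerate mutase gene Pgam2 1.04, 1.63 and 1.26, and Bahd1, a heterochromatin protein, 1.58, 1.01 and 1.20. Of the 7, the arrays overlapped between genotypes for Pgam2 alone, and the 2-fold choice favours the lack of overlap in the others.

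**Figure D3:**
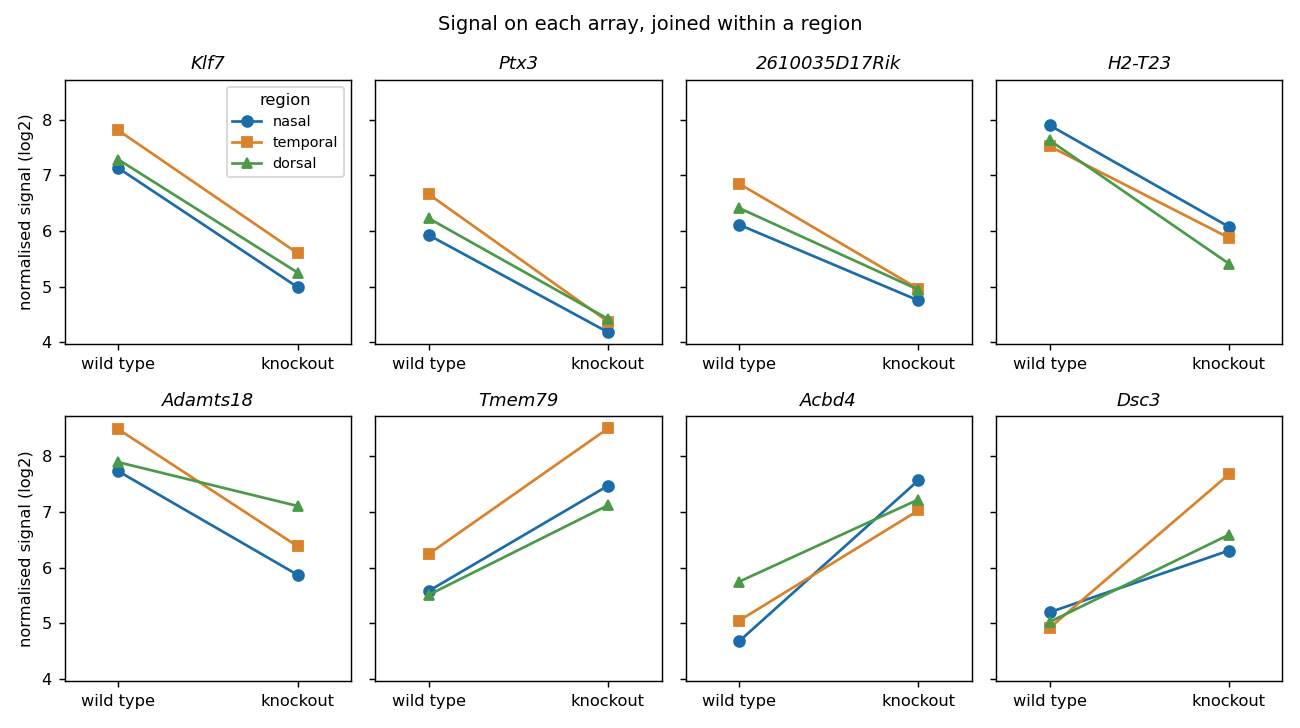
Normalised signal (log2, y axis) on each wild-type array and the array labelled knockout of the same region, joined by a line, for 5 lower and 3 higher genes. The genes were chosen among those with 1 sign in all 3 regions, so the 3 lines of a gene run in 1 direction. For each gene shown the genotypes do not overlap.

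Just under the 2-fold line in their weakest region were 5 higher genes, Ptch1, the Hedgehog receptor, which is itself a target of the pathway (0.98, 1.59 and 0.96), the RNA-binding protein gene Khdrbs3 (0.96, 1.77 and 1.46), Spryd3 (0.96, 2.09 and 1.73), Rcsd1, known as a partner of actin-capping protein (0.95, 1.44 and 1.86), and Stambp, an endosomal deubiquitinase (1.54, 0.95 and 1.30). The second probe of Ptch1 gave -0.39, 1.44 and -0.35, opposite in nasal and dorsal.

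A gene's other probes measure the same RNA on the same arrays, and were used to ask which of these differences hold beyond 1 probe. Whether the probes of a gene overlap in sequence is not known here. Of 4797 genes with 2 or more tested probes, 92 (1.92%) were higher and 145 (3.02%) lower on every probe in every region. Among second brightest probes as a whole, 11.7% were higher and 15.9% lower in all 3 regions. Where the brightest probe was at least 1.5-fold apart in every region, the second probe had the same sign in all 3 regions for 36 of 91 genes (39.6%) and the opposite sign in all 3 for 7 (7.69%). For all genes whose brightest probe had 1 sign in every region these shares were 354 of 1314 (26.9%) and 111 (8.45%). With the authors' processed values the second probe had the same sign for 35 of 137 genes at least 1.5-fold apart (25.5%), against 239 of 1128 (21.2%) of all genes with 1 sign, so both shares and the gap between them were smaller. By direction the second probe had the same sign for 24 of 58 lower and 12 of 33 higher genes. Of the 29 genes 13 had 2 or more tested probes, and in 7 of these, Acbd4, Churc1, Col2a1, Gyg, H2-T23, Nfix and Ptx3, every probe had 1 sign in every region.

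**Figure D4:**
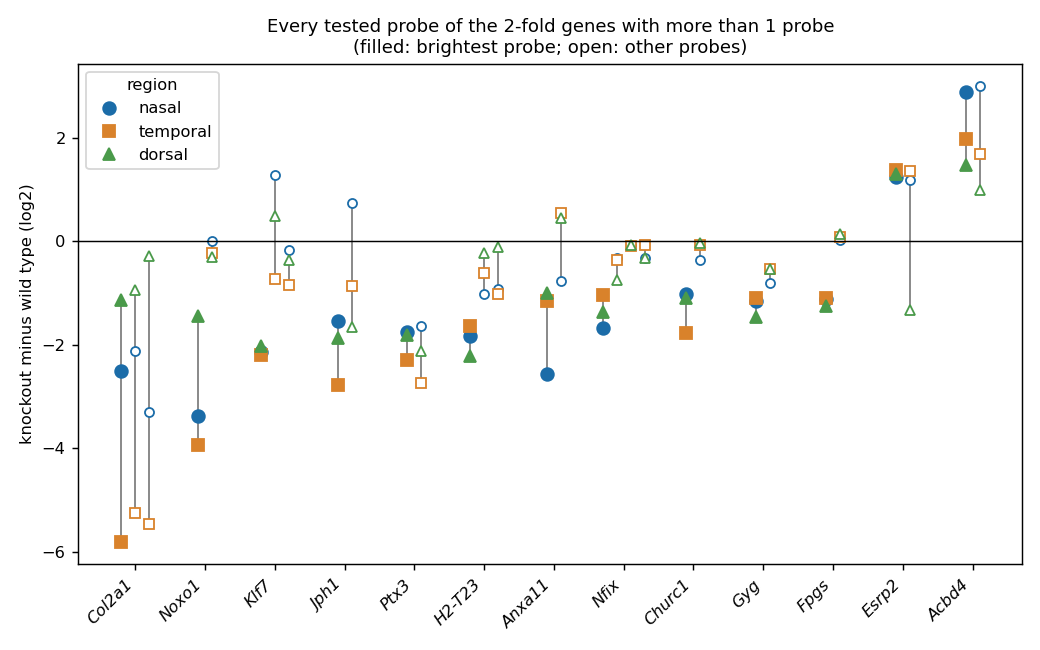
Knockout minus wild type (log2, y axis) on every tested probe of the 13 genes with more than 1 probe among the 29 (x axis), filled for the brightest probe and open for the others, with nasal, temporal and dorsal as circles, squares and triangles. The probes of Ptx3 and Acbd4 lie on 1 side of 0, whereas those of Klf7, Jph1, Anxa11 and Esrp2 spread over both sides.

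Genes lower on every probe were led, by their weakest probe and region, by Ptx3 and Adamts18, a secreted metalloprotease of the ADAMTS family with known roles in mouse eye and lung development. Adamts18 read 5.87, 6.39 and 7.11 on the arrays labelled knockout and 7.73, 8.49 and 7.89 on the wild-type arrays on its brightest probe (fit -1.58, SE 0.34). Its 4 probes gave -1.86, -2.10 and -0.79 on the brightest, -2.98, -3.04 and -1.28 on the second, -1.29, -1.41 and -1.47 on the third and -0.71, -0.92 and -0.84 on the dimmest, so each of the 12 differences was lower by at least 0.71. Baz2b, a bromodomain protein, had -0.66, -1.40 and -0.77 on the brighter probe and -1.29, -1.22 and -1.10 on the other. St6gal1, which adds sialic acid to glycoproteins, read 8.51, 8.29 and 8.15 against 9.03, 10.35 and 9.10, with -1.91, -2.51 and -0.89 on its second probe. Gprc5b, an orphan receptor, had -2.26, -1.15 and -0.67 on the brighter probe and -1.005, -0.48 and -0.96 on the other.

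Myc and Il17rd, both known to follow FGF signalling, were also in this group. The Myc probes gave -0.82, -2.01 and -0.79 on the brighter probe and -0.64, -1.48 and -0.58 on the other, and it was detected on 1 of 3 arrays labelled knockout. Il17rd, a feedback inhibitor of FGF receptors, had -0.88, -1.77 and -0.45 on the brighter probe and -0.53, -0.84 and -1.92 on the other. For both genes the temporal and nasal wild-type arrays were highest and the genotypes overlapped. The other 3 of the 10 were Erdr1 (-0.85, -0.53 and -0.74 on the brighter probe and -0.84, -0.65 and -0.75 on the other), Gyg and BC005624 (-0.61, -0.73 and -0.73 on the brighter probe and -0.45, -0.86 and -0.92 on the other).

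Higher on every probe were, after Acbd4, the phosphatase gene Ppm1j (0.79, 1.91 and 0.55 on the brighter probe and 1.30, 1.499 and 0.55 on the other) and Drosha, the nuclease that cuts primary microRNAs (0.51, 0.60 and 0.52 on the brighter probe and 0.76, 1.002 and 0.67 on the other). Tmprss13, a membrane serine protease of stratified epithelia, had 0.96, 1.23 and 0.83 on the brighter probe and 0.42, 0.82 and 0.67 on the other. Ddx51, a helicase of ribosome assembly, had 2.86, 0.87 and 0.67 on the brighter probe and 0.77, 0.50 and 0.31 on the other, and Eya3, a transcriptional coactivator and phosphatase, 0.70, 0.90 and 0.59 on the brighter probe and 0.31, 0.54 and 0.67 on the other. The co-chaperone gene Ahsa2, Psme3ip1, the tubulin-modifying Agbl5 and Gnptg, a subunit of the enzyme that tags lysosomal proteins, completed the 10, with weakest differences of 0.42, 0.39, 0.37 and 0.31. For Drosha, Psme3ip1, Agbl5, Eya3 and Ddx51 the genotypes did not overlap on the brightest probe. The fitted difference was 0.54, SE 0.23 for Drosha and 0.73, SE 0.24 for Eya3.

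Gene groups are given by counts of members with the same sign in all 3 regions, beside 13% higher and 14.4% lower over all genes, with a median over all genes of -0.01. No member of any group passed limma across all genes. The groups were written with earlier results in view, and some members, such as Tmem79, Rcsd1 and Clec4b1, were placed for that reason, so a group's direction is a description. Members are given on their brightest probe. At least 1 other probe had another sign in some region for Fgfbp3, Sulf2, Hs6st1, Wnt7b, Sufu, Smo, Grhl2, Cldn10, Nfia, Nfib, Psmb8, Gtse1, Ccng1, Cdk20 and Pfkl. The same held for Ptch1, Esrp2, Klf7, Jph1, Myh8 and Ddx3x, among others. Median scaling in place of quantile normalization moved the median of all genes to 0.14 and made 75.1% of genes with 1 sign in every region higher, against 47.4%, so each group's direction is relative to that choice. With the authors' processed values, set to a floor of 16 before log2 so that dim arrays can tie, 950 genes were higher and 1147 lower in all 3 regions. Some group members have values at background, of which these are examples. Sox10, Shisa2, Myc and Cldn10 were detected on 1 of 3 arrays labelled knockout, and Psmb8 on 1 of 3 wild-type arrays. Hes5 and Col9a1 were detected on 1 array of each genotype. Spry4 lay below the lowest detected level on all 3 arrays labelled knockout, and Heyl on all 3 wild-type arrays. The sign of such a member can rest on background. A member detected in 1 genotype only passed the detection filter through that genotype, which favours its direction.

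In the FGF and ERK response 8 of 17 tested members were lower in all 3 regions and 2 higher, with a median of -0.45. Spry2, a feedback inhibitor of the pathway, had -0.96, -0.99 and -0.73, and its arrays did not overlap. The phosphatase gene Dusp4, the factor gene Etv5, Fgfr1, Spred1 and Spry4, beside Myc, Il17rd and Spry2, made up the 8. The higher ones were Fgfbp1 (1.38, 0.38 and 0.48), a carrier that releases FGFs from matrix, and Fgfbp3 (1.38, 1.10 and 0.25), which had -0.12 with the mean of its probes. With median scaling 5 were lower and 2 higher. Gland bud genes had 3 of 12 lower and 0 higher, Ehf, an ETS factor of epithelia (-2.87, -0.74 and -1.98), Sox10, a relative of Sox9 in gland buds and glia (-1.21, -4.19 and -0.22), and Shisa2, which holds back FGF and Wnt receptors (-1.15, -2.41 and -0.12). Sox10 and Shisa2 differed most in temporal and least in dorsal, Sox10 with overlap of the genotypes, and a second probe of Shisa2 was also lower in all 3 regions. With the authors' processed values 1 of 12 was lower (Sox10 and Shisa2 tied at the floor in dorsal), and with the mean of probes 6 were.

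Of the cartilage matrix 4 of 8 tested members were lower and 2 higher in all 3 regions (median -0.83), and their summed signal was 186 to 274 on the arrays labelled knockout and 299 to 2095 on the wild-type arrays. The collagens Col9a1 (-0.10, -4.98 and -0.18), Col9a2 (-0.16, -2.74 and -0.28) and Col9a3 (-0.62, -2.39 and -0.10) joined Col2a1, each with its largest difference in temporal. Col9a2, detected on 0 of 3 arrays labelled knockout, was at least 1.75-fold lower in the mean over regions, which rests on temporal. With the authors' processed values 1 of 8 was lower in all 3 regions, Col2a1, and 0 higher, as Col9a1 and Col9a2 tied at the floor in nasal and dorsal. Hapln1, a link protein of hyaluronan, was higher (0.11, 0.52 and 1.21). Heparan sulfate synthesis had 4 of 22 lower and 3 higher, with the sulfotransferase Hs3st1 at -0.77, -1.32 and -0.09, the sulfatase Sulf2 at 0.97, 0.90 and 0.35, the 6-O-sulfotransferase Hs6st1 at 0.58, 0.35 and 0.34 and B4galt7 at 0.11, 0.39 and 0.62. Basement membrane genes had 4 of 20 in each direction, Col4a2 at -1.74, -0.99 and -0.33 and Col4a1 at -0.33, -0.35 and -0.63 against Lama5 at 0.42, 0.77 and 0.23 and the perlecan gene Hspg2 at 0.22, 0.70 and 0.56. With the mean of probes 7 basement membrane genes were lower and 3 higher, and with processed values 2 and 4, while heparan sulfate genes had 2 lower and 2 higher with processed values.

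The nuclear factor I family had 3 of 4 members lower in all 3 regions (Nfix, Nfia and Nfib) and 0 higher, and Nfic had a fitted -0.36. Nfia and Nfib were near 0 in temporal, at -0.15 and -0.02. With median scaling 2 of 4 were lower. Of 12 Krüppel-like factors Klf7 alone had 1 sign in all 3 regions, and with median scaling 1 more was higher, while with the mean of probes 3 were lower. Of 13 class I antigen presentation genes 2 were lower, H2-T23 and H2-T22, and 2 higher, the immunoproteasome subunit Psmb8 (0.83, 0.48 and 0.41) and H2-Q1 (0.59, 0.45 and 0.16). With processed values 0 were higher and 2 lower.

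Among epithelial groups, desmosome and keratin genes of stratified epithelium had 5 of 21 members higher in all 3 regions and 1 lower (median 0.27). This group also held regulators that are neither desmosome nor keratin genes, among them Esrp2, Grhl2 and Grhl3. Beside Dsc3 and Esrp2, the plakophilin Pkp3 was higher (1.24, 0.81 and 0.77), as were the factor gene Grhl3 and Krt16, while Grhl2 was lower on its brightest probe. With median scaling 10 were higher and 0 lower. In the conjunctival and corneal group 3 of 13 were higher, the basal keratins Krt5 (0.26, 0.82 and 0.43) and Krt14 (0.02, 1.80 and 0.51) and Krt19 (0.16, 0.74 and 0.20), and Epcam was lower (-0.23, -0.99 and -0.09). The temporal arrays held the largest of these keratin differences. Claudin and tight junction genes had 4 of 20 in each direction, with Marveld2, or tricellulin, at 0.39, 0.39 and 0.24, Cldn6 at 0.83, 0.22 and 0.25, Cldn10 at -1.60, -3.05 and -0.39 and Marveld3 at -0.55, -0.66 and -0.37. The 4 higher genes include Tmem79, which was placed in this group with its values known. With processed values 2 were left in each direction.

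In signalling groups the Notch pathway had 4 of 12 higher and 0 lower (median 0.34), with the receptor gene Notch1 at 0.96, 1.83 and 0.58, its target Hes1 at 0.25, 0.36 and 0.41, and Hes5 and Heyl. The last 2 were at background on most arrays. With processed values 2 were higher and with median scaling 6, with 0 lower in each. The Wnt pathway had 4 of 24 higher, among them the ligand gene Wnt7b (0.65, 1.74 and 0.80) and Znrf3, a feedback inhibitor that removes Frizzled receptors (0.72, 0.70 and 0.38), and 3 lower, led by the receptor gene Fzd7 (-1.25, -1.84 and -0.59). With processed values 2 Wnt genes were higher and 2 lower, and with median scaling 8 and 2. BMP and TGF-beta genes had 3 of 12 higher, with Bmp4 at 0.50, 2.73 and 0.54, and 2 lower, and with processed values 1 was left in each direction. Hedgehog genes had 3 of 10 higher, Ptch1, Sufu (0.22, 1.53 and 0.48) and Smo (0.43, 0.37 and 0.32), and Gli3 lower (-0.10, -1.05 and -0.98). With the mean of its probes Smo had a fitted -0.12, and the Hedgehog group then had 1 higher and 1 lower.

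Of p53 targets 5 of 18 were higher and 1 lower, led by the polymerase gene Polk (0.70, 1.23 and 1.13) and Gtse1 (1.64, 0.63 and 0.60), with Ccng1 at 0.25, 0.83 and 1.31. With processed values 3 were higher and 1 lower, and with median scaling 9 and 0. Cell cycle genes had 5 of 29 higher and 6 lower, with the licensing factor gene Cdt1 at 0.58, 0.93 and 0.42 and Cdk20 at 0.92, 1.80 and 1.23 against the helicase subunit gene Mcm2 at -0.53, -0.62 and -0.40. With median scaling the cell cycle count became 9 higher and 2 lower, which turned its balance. Glycolysis and hypoxia genes had 6 of 19 higher and 0 lower (median 0.28), with the glucose transporter Slc2a3 at 1.12, 1.52 and 0.62 and the phosphofructokinase Pfkl at 0.80, 0.59 and 0.39, beside Pgam2, Gapdh, Slc2a1 and Vegfa. The count was 8 and 0 with median scaling and 6 and 0 with the authors' processed values.

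**Figure D5:**
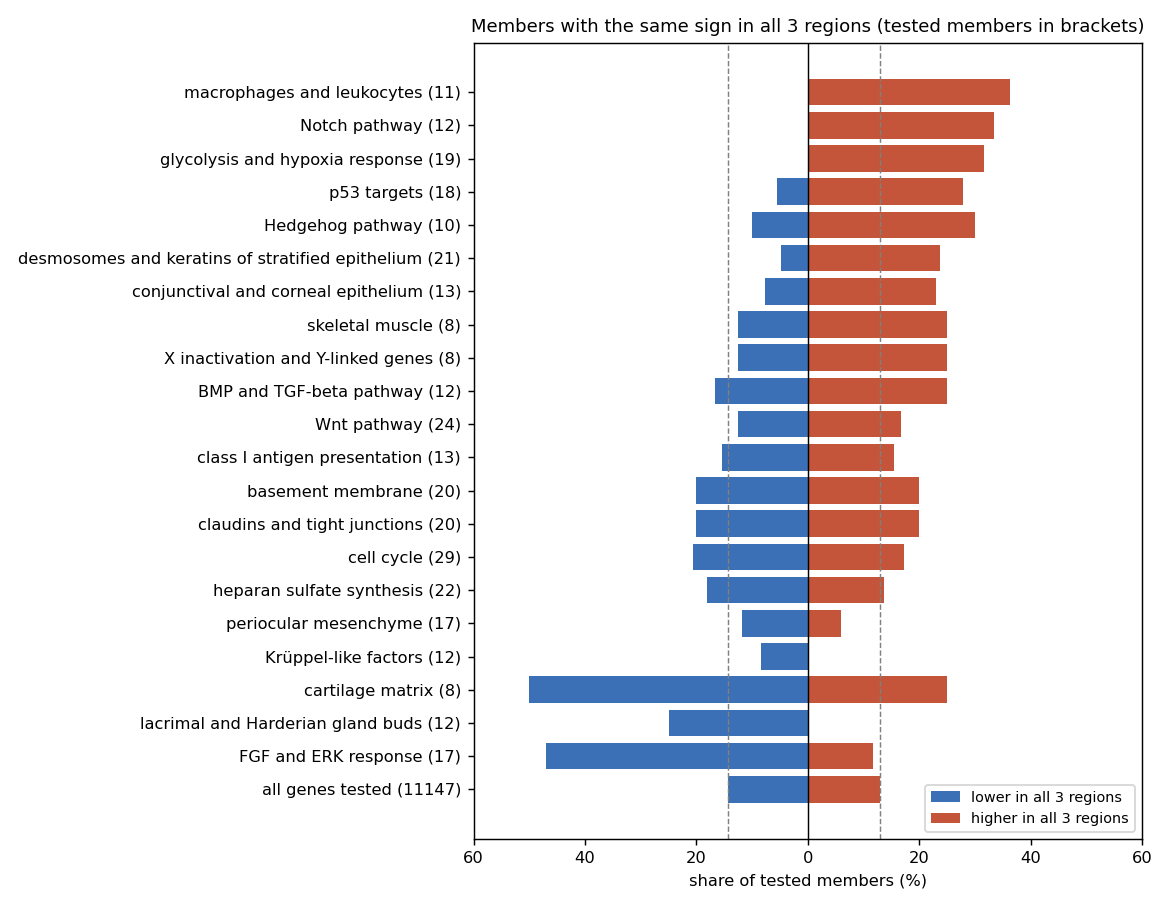
Share of tested members (%, x axis) higher in all 3 regions (right) or lower in all 3 (left) for gene groups with at least 8 tested members (y axis, number in brackets), with dashed lines at the shares over all 11147 genes (13% and 14.4%). FGF and ERK response and cartilage matrix genes lie furthest to the left, and macrophage and leukocyte, Notch and glycolysis genes have no member lower in all 3 regions.

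Markers of other cells were counted in the same way. Macrophage and leukocyte genes had 4 of 11 higher in all 3 regions and 0 lower (median 0.74), and their summed signal (offset included) was 499 to 764 on the arrays labelled knockout and 249 to 347 on the wild-type arrays. Rcsd1 and Clec4b1 were placed in this group with their values known. Without them, a choice made after seeing the data, 2 of 9 were higher and 0 lower (median 0.45), and the summed signal overlapped, at 271 to 556 on the arrays labelled knockout and 191 to 280 on the wild-type arrays. The 4 were Rcsd1, the lectin Clec4b1 (2.42, 2.61 and 0.83), the mannose receptor gene Mrc1 (2.16, 0.84 and 0.61) and Tyrobp. Mrc1 was detected on 0 of 3 wild-type arrays and was at least 2.12-fold higher in the mean over regions. It passed the detection filter only through the arrays labelled knockout, which favours its direction. It is nevertheless part of the counts, medians and sums given here, with and without Rcsd1 and Clec4b1. Of 19 on the array 6 were detected on no array, namely C1qb, C1qc, Cd14, Cybb, Ptprc and Spi1. With the authors' processed values 2 of the 11 were higher in all 3 regions and 0 lower. Periocular mesenchyme had 1 of 17 higher and 2 lower, with sums of 1662 to 1862 on the arrays labelled knockout and 1154 to 1971 on the wild-type arrays. Skeletal muscle had 2 of 8 higher (Myh8 and Tnnt1) and 1 lower (Jph1), erythroid genes 1 of 5 higher and 0 lower, nerve and Schwann cell genes 1 of 4 in each direction (Foxd3 at 0.30, 0.65 and 0.11 and Ngfr at -0.24, -2.20 and -0.43), lens genes 1 of 7 in each direction (Prox1 at 1.14, 2.59 and 0.94 and Cryba1), pigment cell genes 1 of 2 higher (Mitf at 0.39, 1.29 and 0.42), and retina had 1 tested gene, Sox2. The part of these cells in the differences above was not tested.

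The sex make-up of the pools was looked at since a genotype's arrays share embryos. Xist, expressed from the inactive X of females, read 9.18, 8.27 and 8.39 on the arrays labelled knockout and 9.17, 9.22 and 8.83 on the wild-type arrays. Its other 3 probes were lower in all 3 regions, by -0.08, -1.23 and -0.28 on the second, -0.05, -1.19 and -0.57 on the third and -0.38, -1.62 and -0.42 on the dimmest, while the brightest was 0.01 in nasal. The Y-linked Eif2s3y read 7.60, 6.75 and 6.99 against 6.65, 4.90 and 6.75, higher in all 3 regions (0.95, 1.85 and 0.23) on its brightest probe, with 0.32, 0.87 and -1.38 on the other. On the brightest probes the ranges of both genes overlapped between genotypes, and RNA of both was present on every array. Eif2s3x, the X-linked partner of Eif2s3y, had 0.15, 0.05 and 0.30. Ddx3x had -0.40, -0.40 and -0.38 on its brightest probe and 0.07, -0.23 and -0.34 on the other, while Kdm5d, Uty, Kdm5c and Kdm6a differed in sign between regions. The part of sex in the differences was not tested.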

How the data were processed

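Laser-microdissected conjunctival epithelium was amplified to cDNA and hybridised to 6 Illumina bead arrays, per the labels' protocols. The extraction protocol speaks of prospective lens tissue from 1 embryo, whereas the design text gives 3 embryos per genotype with cDNA pooled by region. The authors deposited average signal intensities, bead standard errors and bead counts per probe (median 43 beads), and a detection p-value, per the file headers. GenomeStudio is named in the submitters' processing notes, without version. A second table, also deposited, has linear intensities after the authors' processing, some below 0, with near-equal medians (4.24 to 4.25), and their normalization is not stated. As an alternative they were set to a floor of 16 and taken to log2. Each of its columns ranked probes as its own array did (rank correlation 1), so their direction is known. The signal table also held 1315 entries without a probe identifier, which were not used.

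Signals were corrected with limma's normexp (version 3.58.1, R 4.3.3; parameters inferred from the detection p-values, offset 16), quantile-normalized and taken to log2. Of 45281 probes 34885 had 1 gene symbol, 18 several and 10378 none. Symbols were updated through RefSeq GRCm38.p6. Probes detected (p under 0.05) on 2 or more of the 6 arrays were tested, and the brightest stood for its gene. The offset makes differences of dim genes too small. A linear model with region and genotype was fitted with lmFit and eBayes, with Benjamini-Hochberg adjustment over 11147 genes, threshold 0.05, and was checked on simulated data. Within a region there is 1 array per genotype, so regional differences have no test. No permutation test was run, as 3 against 3 is too few for it. The bead standard error of a log2 difference was taken from the deposited values. A gene undetected on all arrays of 1 genotype has its fold as a bound, against the higher of its own value and the lowest detected value of each array. The bound is for the mean over the 3 regions. The number of arrays limits all precision.

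Named were, in each direction, 12 genes by their weakest region, 10 by their weakest probe and region, and up to 3 members of each gene group by their weakest region, then Sox9 and sex-linked genes. Group members with a weakest difference under 0.2 are mostly counted only. Also named, after their values were seen, were the rest of the 29 genes at least 2-fold apart in every region, Esyt2, the neighbours of Sox9 and further group members. Members and groups were chosen with earlier results of these data known.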

Additional observations from a re-analysis of the deposited data

Results flagged for a closer look

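Sox9 differed between regions in sign, with 1.92 in nasal, 0.0503 in temporal and -0.50 in dorsal. There was 1 array per genotype and region, so this difference between regions was not tested, as for the genes below. The same held for the X-linked histone demethylase genes Kdm5c (0.27, -0.0738 and -0.35 in nasal, temporal and dorsal) and Kdm6a (0.27, -1.16 and 0.11), and for the Y-linked Kdm5d (0.57, 1.14 and -0.72). In each the highest and the lowest difference on the brightest probe lay beyond 1.96 bead standard errors on opposite sides of 0. The other Sox9 probe gave 0.99, -0.42 and 0.78, opposite in temporal and dorsal. The dimmest probe of Kdm5c gave 0.80, -0.33 and 0.78, opposite in dorsal, and its remaining probe 0.36, 0.07 and -0.51, opposite in temporal. The next brightest probe of Kdm6a was opposite in every region (-0.87, 0.15 and -0.13). Its dimmest kept each sign (0.32, -0.49 and 0.30) and its remaining probe was lower throughout (-0.08, -0.85 and -0.04). Kdm5d has 1 tested probe.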

How the results depend on the processing

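Under every alternative run, limma called 0 genes at an adjusted p under 0.05. These covered background correction, offset, scaling, filter, probe choice, the authors' processed values, the model with no replicate block (region left out) and leaving out each array. The count of genes at least 2-fold apart in every region depended most on the processing, since a larger offset or uncorrected background compresses differences. It was 0 higher and 2 lower without background correction, 2 and 2 with offset 50, and 27 higher and 10 lower with median scaling. That scaling moved the median of all genes to 0.14 log2 units and the genes with 1 sign in every region to 2603 higher and 863 lower. It was 5 and 11 with detection on all 6 arrays, 6 and 13 with the mean of a gene's probes, and 24 and 32 with the authors' processed values. Of the 29 genes 17, 16, 18 and 24 were 2-fold again with median scaling, detection on all arrays, mean of probes and processed values. The 29 genes kept their sign in all 3 regions under each of these, except 1 gene with the mean of probes, though 16 of the 29 could be measured with detection on all arrays. Changes of background correction and offset leave the ranks of probes on an array as they were before quantile normalization. They could therefore not turn a sign. Counted over 2 regions only, leaving 1 out (chosen after seeing the data), there were 56 to 122 higher and 61 to 168 lower genes, as fewer regions must be met. Genes with the same sign in all 3 regions numbered 5168 of 19053 without a detection filter and 1990 of 7163 with detection on all arrays. The second probe had the same sign for 25.5% of genes at least 1.5-fold apart with the authors' processed values. Of 99 single-gene results 92 kept their direction under all alternatives run. Most of these genes were chosen for 1 sign in all 3 regions. For those, leaving out an array or changing background correction or offset could not turn the direction, so this count is no measure of robustness. Sox9 turned to -0.22 without either nasal array, Fgfbp3 to -0.12 and Smo to -0.12 with the mean of probes, and Kdm5c to 0.11 with it, 0.24 with median scaling and 0.10 without either dorsal array. Kdm6a turned to 0.0095 with median scaling and 0.19 without either temporal array, Kdm5d to -0.0756 without it, and Uty to 0.15 with the authors' processed values, 0.0113 without a nasal and 0.0134 without a temporal array. Leaving out 1 array gave -0.22 to 0.99 for Sox9, -0.21 to 0.10 for Kdm5c, -0.0756 to 0.86 for Kdm5d, -0.53 to 0.19 for Kdm6a and -0.26 to 0.0134 for Uty. The causes were not tested. Signal near background limits dim genes, of which 0 in the dimmest of 4 equal parts reached 2-fold in every region.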
